A study of Homo sapiens with 10 samples.

Results

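The miR-148 and miR-152 family and the miR-130 and miR-301 family are groups of related microRNAs, short RNAs that guide Argonaute proteins to complementary sites in mRNAs and repress them. The members were the rows of the deposited table named hsa-miR-148a-3p, hsa-miR-148b-3p, hsa-miR-152-3p, hsa-miR-152-5p, hsa-miR-130a-3p, hsa-miR-130b-3p and hsa-miR-301a-3p, which gave 7 of 2576 mature miRNAs. All 7 had reads in each of the 10 libraries, and all 7 passed the filter on low values. Small RNA was sequenced from siRNA-treated ES-2 cells, a long-used cell line derived from a human ovarian cancer. The study's title concerns IGF2BP1 and the repression of oncogenic factors by miRNAs, and the comparisons here ask whether the levels of these miRNAs differed after each knockdown. The groups were siIGF2BP1 (2 libraries, siRNA pool against IGF2BP1), siIGF2BP2 (3 libraries, siRNA pool against IGF2BP2), siIGF2BP3 (3 libraries, siRNA pool against IGF2BP3) and siC (2 libraries, control siRNA). All samples are labelled ES-2, although the source names differ between groups as given below, and the treatment notes of all samples speak of parental cells while the siRNA is named elsewhere in the labels. Neither the time after transfection nor a sign of separate cultures is given in the labels. P-values therefore reflect how much these libraries differ among themselves, and part of that may be technical.

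A miRNA precursor is cut into a hairpin whose arms give the 5p and 3p mature forms, and usually one arm is kept in Argonaute more than the other. Target choice rests mainly on the seed, bases 2 to 8 of the mature miRNA, so miRNAs with the same seed share many predicted targets. The miR-148 and miR-152 family is known for repressing the DNA methyltransferase DNMT1, and miR-130b-3p for repressing TP53INP1. IGF2BP1, IGF2BP2 and IGF2BP3 are paralogous proteins that bind mRNAs and in many cases prolong their life.

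The mature sequences are shown because the families are defined by them, and because near-identical members can exchange reads in counting. They are from RefSeq (GRCh38.p14) for 6 of the 7 members, 5′ to 3′, with the seed in capitals.
hsa-miR-148a-3p: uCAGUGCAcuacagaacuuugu
hsa-miR-148b-3p: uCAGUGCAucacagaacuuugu
hsa-miR-152-3p: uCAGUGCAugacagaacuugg
hsa-miR-152-5p: aGGUUCUGugauacacuccgacu
hsa-miR-130b-3p: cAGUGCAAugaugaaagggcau
hsa-miR-301a-3p: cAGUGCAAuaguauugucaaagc

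The seed CAGUGCA was held by 3 of 2370 mature miRNAs in that RefSeq table, and these were miR-148a-3p, miR-148b-3p and miR-152-3p. The seed AGUGCAA was held by 6 of them, including miR-130b-3p, miR-301a-3p, miR-301b-3p and miR-454-3p. The member without a sequence here, miR-130a-3p, had no entry in that RefSeq table and could not be counted. miR-152-5p, from the opposite arm of the miR-152 hairpin, was the only entry with its seed GGUUCUG. Counting positions from 1 at the 5′ end, miR-148b-3p and miR-148a-3p were identical at 20 of 22 bases, with the substitutions U9C and C10U written from miR-148b-3p to miR-148a-3p. From miR-148b-3p to miR-152-3p the substitutions were C10G and U20G over 21 bases. miR-130b-3p and miR-301a-3p were identical at 11 of the 22 bases compared. How the authors' counting treated reads that match several miRNAs is not given in the sources used here, so reads of the near-identical family members may have been exchanged.

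Apart from the miR-152 arms, which share a hairpin, the members with a RefSeq entry lie at separate loci. Their loci are given in GRCh38.p14 coordinates of RefSeq, whereas the deposited counts were made on hg19. hsa-miR-130a-3p had no entry, so its locus is not given. hsa-miR-148a-3p lies at chr7:25949922-25949943 on the minus strand. hsa-miR-148b-3p lies at chr12:54337278-54337299 on the plus strand, within an intron of COPZ1. hsa-miR-152-3p (chr17:48037174-48037194) and hsa-miR-152-5p (chr17:48037210-48037232) lie on the minus strand within an intron of COPZ2. COPZ1 and COPZ2 encode zeta subunits of the COPI vesicle coat. hsa-miR-130b-3p lies at chr22:21653354-21653375 on the plus strand, in an exon of the noncoding transcript AP000553.1. hsa-miR-301a-3p lies at chr17:59151149-59151171 on the minus strand, in an intron of SKA2, which encodes a subunit of a spindle and kinetochore complex. Of the other family members, miR-454-3p lies 13339 bases from miR-301a-3p in the same host gene, and miR-301b lies 306 bases from miR-130b-3p.

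The libraries held 462724 to 1269743 reads. Values are normalised reads, in which 1 read is worth 0.803 to 1.996 depending on the library. In the labels, 1 source name is given to siIGF2BP2 and siIGF2BP3 samples and a different one to siIGF2BP1 and siC samples. Comparisons across these source names cannot be told apart from whatever that difference stands for, and those within them are siIGF2BP1 against siC and siIGF2BP2 against siIGF2BP3. A list of 92 miRNAs of the imprinted 14q32 cluster took 0.00110% to 0.00195% of reads in the siIGF2BP2 and siIGF2BP3 libraries (4 to 7 detected) and 0.177% to 0.449% in the siIGF2BP1 and siC libraries (58 to 64 detected). Its part in the results below was not tested. IGF2BP mRNAs have 0 rows in the table, and the knockdowns could not be checked in it.

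miR-148a-3p was the member that varied most, with a highest value 36.8 times its lowest. It had 58.6 and 136 normalised reads in the siIGF2BP1 libraries, 21.2, 26.7 and 22.4 in siIGF2BP2, 11.97, 26.0 and 34.5 in siIGF2BP3, and 350 and 441 in siC. Both siC libraries stood above all 8 knockdown libraries. The siIGF2BP1 libraries lay between siC and the other knockdowns and overlapped neither, while the siIGF2BP2 and siIGF2BP3 ranges overlapped. These values rest on 73 and 154 reads in siIGF2BP1, 13 to 15 in siIGF2BP2, 6 to 29 in siIGF2BP3, and 212 and 331 in siC.

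The group means of miR-148a-3p were 97.2 ± 54.5 normalised reads in siIGF2BP1 (SD, n = 2), 23.5 ± 2.89 in siIGF2BP2 (SD, n = 3), 24.2 ± 11.4 in siIGF2BP3 (SD, n = 3) and 395 ± 64.2 in siC (SD, n = 2). Fold changes are on the log2(value + 1) scale, and adjusted p-values are from limma with Benjamini-Hochberg adjustment over 889 miRNAs, with 0.05 as the threshold. miR-148a-3p fell against siC in all knockdowns, with log2 fold changes of -2.12 in siIGF2BP1 (SE 0.45, adjusted p = 0.0263), -4.01 in siIGF2BP2 (SE 0.41, adjusted p = 2.41e-05) and -4.09 in siIGF2BP3 (SE 0.41, adjusted p = 1.74e-05). The authors' deposited table gives log2 fold changes of -2.03, -4.07 and -3.97 for the same comparisons, with false discovery rates of 0.000104, 3.79e-22 and 1.48e-22. These comparisons share the siC libraries, so their directions are not independent of each other.

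The siIGF2BP1 fall missed the threshold when any 1 of the 4 libraries of that comparison was left out (log2 fold change -2.72 to -1.52, adjusted p = 0.0860 to 0.271). It also missed it with a pseudocount of 0.1 (adjusted p = 0.0686), without the intensity trend (adjusted p = 0.168) and when the compared groups were fitted alone (adjusted p = 0.240). The siIGF2BP2 and siIGF2BP3 falls passed under all 13 other settings and all 5 leave-one-out fits run for each. Between siIGF2BP2 and siIGF2BP3 the difference was 0.07, with a 95% interval of -0.73 to 0.87. Against these knockdowns siIGF2BP1 was higher, by 1.89 over siIGF2BP2 (adjusted p = 0.00804) and by 1.96 over siIGF2BP3 (adjusted p = 0.00468). Without siIGF2BP1 replicate 2 these differences were 1.29 and 1.36, and both missed the threshold, as they did with the compared groups fitted alone (adjusted p = 0.0534 and 0.129).

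**Figure D1:**
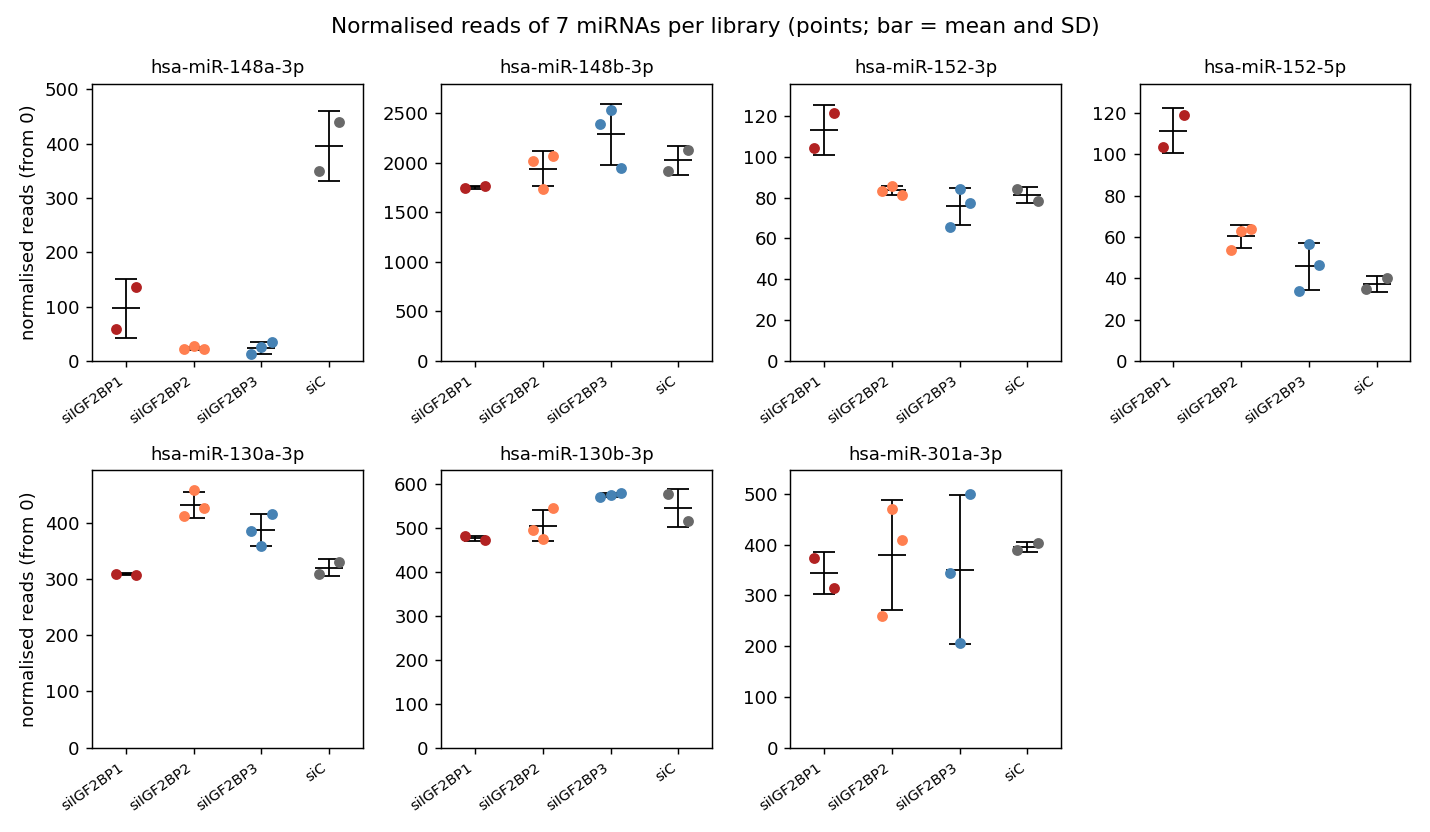
Normalised reads (y axis, from 0) of the 7 members in each library, grouped on the x axis by siIGF2BP1, siIGF2BP2, siIGF2BP3 and siC. Points are libraries, and the bars give the group mean and SD. miR-148a-3p has 11.97 to 136 normalised reads in the knockdown libraries and 350 and 441 in siC, while miR-152-5p is highest in siIGF2BP1.

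The closest relative of miR-148a-3p by sequence, miR-148b-3p, was the most abundant member in all libraries. It had 1744 and 1765 normalised reads in siIGF2BP1, 2022, 1736 and 2069 in siIGF2BP2, 2389, 2538 and 1946 in siIGF2BP3, and 1922 and 2132 in siC. The groups overlapped except that both siIGF2BP1 libraries lay below both siC libraries and below all siIGF2BP3 libraries. Its log2 fold change against siC was -0.21 in siIGF2BP1 (95% interval -0.52 to 0.11), -0.06 in siIGF2BP2 and 0.17 in siIGF2BP3. None passed the threshold in the main limma fit. DESeq2 called it lower in siIGF2BP1 than in siC (-0.44, adjusted p = 0.0456), and scaling to upper quartiles called it higher in siIGF2BP3 than in siC (0.77, adjusted p = 0.00517). Between siIGF2BP1 and siIGF2BP3 the log2 fold change of miR-148b-3p was -0.38 (95% interval -0.66 to -0.09, limma adjusted p = 0.0781). That difference missed the threshold in limma, and it passed in 7 of 15 other settings and 1 of 5 leave-one-out fits.

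As a share of the reads of the family's 3p arms (miR-148a-3p, miR-148b-3p and miR-152-3p), which does not depend on scaling between libraries, miR-148a-3p took 3.08% and 6.71% in siIGF2BP1. The share was 0.998%, 1.45% and 1.03% in siIGF2BP2, 0.485%, 0.983% and 1.68% in siIGF2BP3, and 14.8% and 16.6% in siC. The highest upper limit of an exact Clopper-Pearson 95% interval among the knockdown libraries was 7.82%, in siIGF2BP1 replicate 2, and the lowest lower limit in siC was 13.0%. These intervals cover counting error only. miR-148b-3p took 89.4% ± 2.95 of the family's reads in siIGF2BP1 (SD, n = 2), 94.7% ± 0.725 in siIGF2BP2 (SD, n = 3), 95.8% ± 1.14 in siIGF2BP3 (SD, n = 3) and 81.0% ± 0.821 in siC (SD, n = 2). The summed level of the miRNAs with the seed CAGUGCA came mostly from miR-148b-3p. It was 1965 ± 81.3 normalised reads in siIGF2BP1 (SD, n = 2), 2049 ± 175 in siIGF2BP2 (SD, n = 3), 2391 ± 302 in siIGF2BP3 (SD, n = 3) and 2503 ± 209 in siC (SD, n = 2). The sums in siIGF2BP1 (1907 and 2022) and siIGF2BP2 (2126, 1848 and 2172) all lay below both siC sums (2355 and 2651). Those in siIGF2BP3 (2467, 2648 and 2057) overlapped siC. Differences in the sum were not tested.

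**Figure D2:**
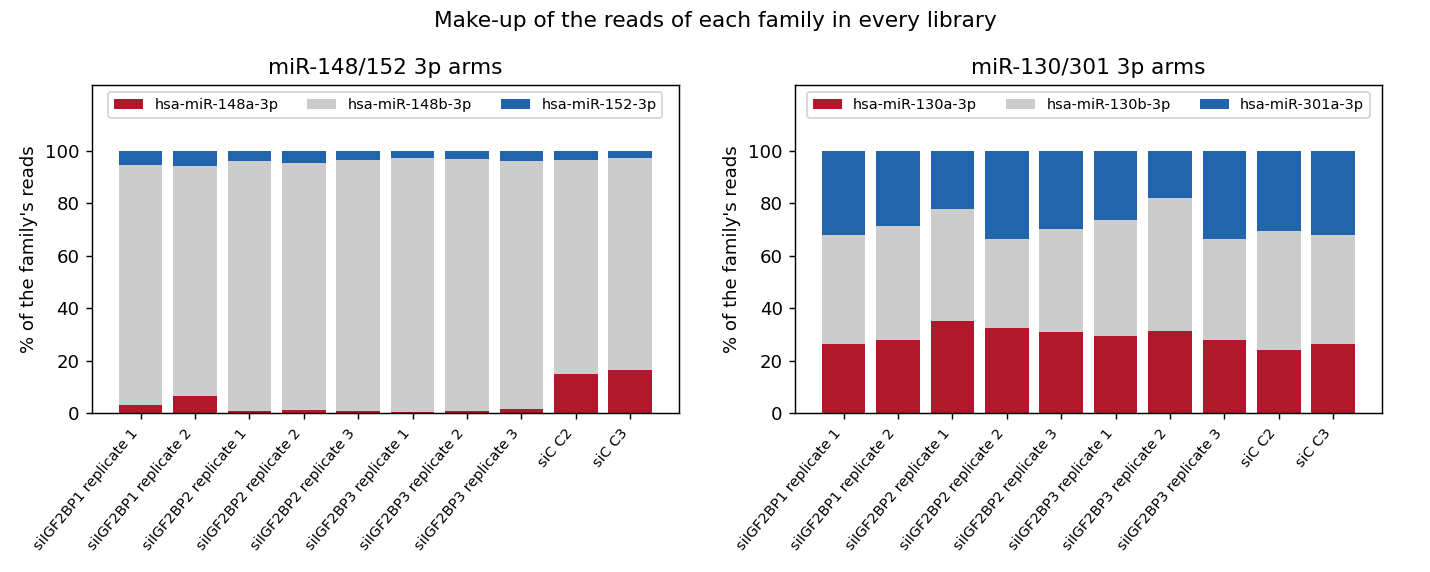
Percentage of the summed reads of the 3p members shown (y axis) taken by each of them in each library (x axis). Stacked bars are for miR-148 and miR-152 (left) and for miR-130a-3p, miR-130b-3p and miR-301a-3p (right). The right bars leave out miR-454-3p and miR-301b, which share the seed AGUGCAA. miR-148a-3p takes 0.485% to 6.71% of its family in the knockdown libraries and 14.8% and 16.6% in siC.

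The miR-152 hairpin gave reads from both arms at levels of the same order. miR-152-5p was the 1 member called higher than siC in any knockdown in the main limma fit. miR-152-5p had 104 and 119 normalised reads in siIGF2BP1, 53.8, 63.0 and 63.9 in siIGF2BP2, 33.9, 56.8 and 46.4 in siIGF2BP3, and 34.6 and 39.9 in siC. Both siIGF2BP1 libraries stood above all other libraries, the siIGF2BP2 libraries stood above siC, and siIGF2BP3 overlapped siC. Its mean was 111 ± 10.9 in siIGF2BP1 and 37.3 ± 3.74 in siC (SD, n = 2 each). It rose by 1.55 on the log2 scale in siIGF2BP1 (SE 0.27, 95% interval 0.97 to 2.13, limma adjusted p = 0.00724), and the authors' deposited table gives 1.57 with a false discovery rate of 2.53e-05.

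Without siC C2, siIGF2BP1 replicate 1 or siIGF2BP1 replicate 2 the miR-152-5p rise missed the threshold, with a log2 fold change of 1.45 to 1.65 over the 4 leave-one-out fits. It also missed it without the intensity trend (adjusted p = 0.0763) and with the compared groups alone (adjusted p = 0.0921). The comparisons with siC gave 0.68 in siIGF2BP2 (adjusted p = 0.127) and 0.26 in siIGF2BP3 (adjusted p = 0.628), neither past the threshold. miR-152-5p was higher in siIGF2BP1 than in siIGF2BP2 by 0.88 (adjusted p = 0.0296) and than in siIGF2BP3 by 1.29 (adjusted p = 0.00208). The difference from siIGF2BP2 missed the threshold in all 5 leave-one-out fits, and it was 0.19 when libraries were scaled to upper quartiles. That scaling also ended the call against siIGF2BP3 (0.49, adjusted p = 0.189).

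miR-152-3p, the arm that carries the family seed, had 104 and 122 normalised reads in siIGF2BP1, 83.5, 85.9 and 81.2 in siIGF2BP2, 65.9, 84.0 and 77.3 in siIGF2BP3, and 84.1 and 78.5 in siC. Here too both siIGF2BP1 libraries were above all others, and the remaining groups overlapped. The log2 fold change against siC was 0.47 in siIGF2BP1 (95% interval 0.02 to 0.91, adjusted p = 0.329), 0.04 in siIGF2BP2 and -0.11 in siIGF2BP3. Between siIGF2BP1 and siIGF2BP3 it was 0.57 (limma adjusted p = 0.0574), which missed the threshold. That difference passed in 3 of 15 other settings, over which it ran from -0.23 to 0.58.

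Of the reads of both miR-152 arms, the 5p arm took 49.8% and 49.5% in siIGF2BP1, 39.2%, 42.3% and 44.0% in siIGF2BP2, 34.0%, 40.3% and 37.5% in siIGF2BP3, and 29.2% and 33.7% in siC. All knockdown libraries stood above both siC libraries, and both siIGF2BP1 libraries stood above the rest. The mean in siIGF2BP1 exceeded that in siC by 18.2 percentage points (two-sided exact permutation p = 0.333, the smallest that 2 against 2 libraries allow). Differences from siC were 10.4 points in siIGF2BP2 and 5.84 points in siIGF2BP3 (exact permutation p = 0.2 for each, the smallest that 3 against 2 allow). Each share rests on 50 to 273 reads, and the exact 95% intervals of the siIGF2BP1 libraries (43.6% to 56.1% and 43.4% to 55.5%) overlap that of siC C3 (24.0% to 44.5%). Intervals of the siIGF2BP2 and siIGF2BP3 libraries all overlap those of both siC libraries. The closest values were 34.0% in siIGF2BP3 replicate 1 (17 of 50 reads) and 33.7% in siC C3 (30 of 89 reads).

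**Figure D3:**
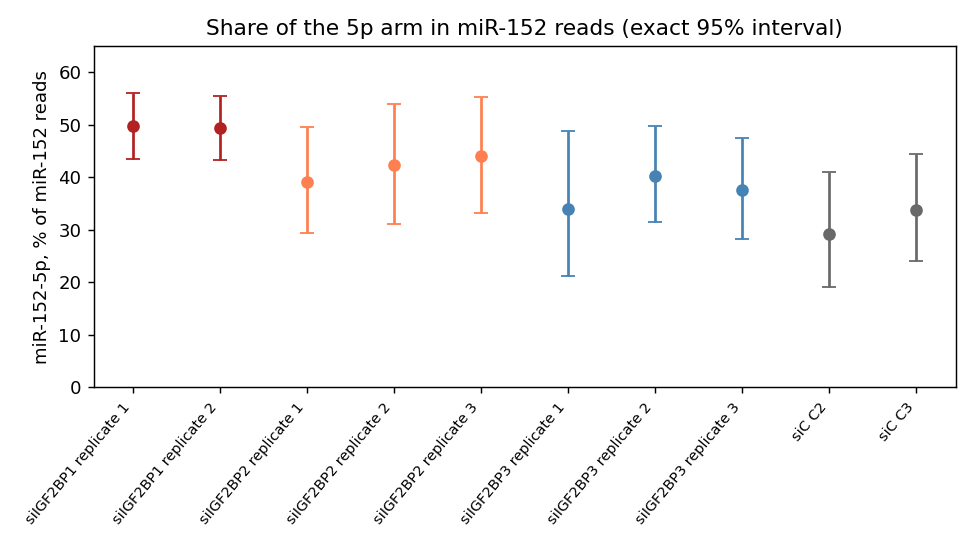
Percentage of miR-152 reads that came from the 5p arm (y axis) in each library (x axis), and error bars that are exact 95% binomial intervals. The siIGF2BP1 libraries are at 49.8% and 49.5%, and the siC libraries are at 29.2% and 33.7%.

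In the main limma fit, none of the miR-130 and miR-301 members passed the threshold against siC in any knockdown. Some alternatives named below, limma with other settings among them, called miR-130a-3p or miR-130b-3p. miR-130a-3p had 310 and 308 normalised reads in siIGF2BP1, 413, 458 and 426 in siIGF2BP2, 385, 360 and 416 in siIGF2BP3, and 310 and 331 in siC. The siIGF2BP2 and siIGF2BP3 libraries stood above both siC and both siIGF2BP1 libraries. In siIGF2BP2 the log2 fold change against siC was 0.43 (SE 0.13, adjusted p = 0.0608), which missed the threshold in the fit over all groups and passed it in 4 of 13 other settings. In siIGF2BP3 it was 0.27 (adjusted p = 0.272; 0.86 and past the threshold when scaled to upper quartiles, adjusted p = 0.00148) and in siIGF2BP1 it was -0.05 (adjusted p = 0.966).

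miR-130a-3p was lower in siIGF2BP1 than in siIGF2BP2, by a log2 fold change of -0.48 (adjusted p = 0.0277). That call passed in 1 of 5 leave-one-out fits. Between siIGF2BP1 and siIGF2BP3 the log2 fold change of miR-130a-3p was -0.32 (limma adjusted p = 0.133), which missed the threshold and passed in 5 of 15 other settings. miR-130b-3p had 481 and 473 normalised reads in siIGF2BP1, 497, 475 and 546 in siIGF2BP2, 571, 575 and 579 in siIGF2BP3, and 577 and 516 in siC. The siIGF2BP1 libraries lay below siC, the siIGF2BP2 range overlapped siC, and so did that of siIGF2BP3. Its log2 fold changes against siC were -0.19, -0.11 and 0.07 in siIGF2BP1, siIGF2BP2 and siIGF2BP3, and none of its comparisons passed in limma as reported. On recovered reads it was called lower in siIGF2BP1 than in siC by edgeR (-0.45, adjusted p = 0.0422) and DESeq2 (-0.43, adjusted p = 0.0379), and both also called it lower than in siIGF2BP3 (adjusted p = 0.0154 and 0.0167). Scaling to upper quartiles called it higher in siIGF2BP3 than in siC (0.67, adjusted p = 0.0117) and lower in siIGF2BP1 than in siIGF2BP2 and siIGF2BP3 (-0.78 and -1.08). It was the steadiest member, its highest value being 1.22 times its lowest.

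miR-301a-3p had 374 and 316 normalised reads in siIGF2BP1, 259, 470 and 409 in siIGF2BP2, 343, 207 and 501 in siIGF2BP3, and 389 and 403 in siC. Its libraries spread more widely within siIGF2BP2 and siIGF2BP3 than the group means were apart. The group means were 345 ± 41.6 in siIGF2BP1 (SD, n = 2), 379 ± 109 in siIGF2BP2 (SD, n = 3), 350 ± 147 in siIGF2BP3 (SD, n = 3) and 396 ± 9.88 in siC (SD, n = 2), and no comparison passed the threshold. The summed level of miR-130a-3p, miR-130b-3p and miR-301a-3p was 1131 ± 48.8 normalised reads in siIGF2BP1 (SD, n = 2), 1318 ± 130 in siIGF2BP2 (SD, n = 3), 1312 ± 178 in siIGF2BP3 (SD, n = 3) and 1264 ± 18.2 in siC (SD, n = 2).

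In siIGF2BP1 against siC, 2 of the 7 members passed, beside 2.47% of all miRNAs tested, and the members' median log2 fold change was -0.19, beside 0.10 for all miRNAs tested. In siIGF2BP2 against siC 1 member passed (9.00% of all), with medians of -0.06 and -0.03. In siIGF2BP3 against siC 1 member passed (10.6% of all), with medians of 0.07 and 0. A single member of 7 is near those background shares. Scaled to upper quartiles, the 6 members other than miR-148a-3p all had positive log2 fold changes in siIGF2BP2 (0.37 to 1.15) and siIGF2BP3 (0.33 to 0.86) against siC. As deposited, those of miR-148b-3p, miR-130b-3p and miR-301a-3p in siIGF2BP2 and of miR-152-3p and miR-301a-3p in siIGF2BP3 were negative. That scaling moved the median of all miRNAs with a mean of at least 10 to 0.52 in siIGF2BP2 and 0.67 in siIGF2BP3. Between siIGF2BP2 and siIGF2BP3, 0 members passed in limma (3.15% of all) and 0 had an unadjusted p under 0.05. There edgeR and DESeq2 on recovered reads also called 0 members, beside 40 of 335 and 42 of 292 miRNAs. For siIGF2BP1 against siIGF2BP2, 3 members passed (13.5% of all), and against siIGF2BP3, 2 passed (14.8% of all). Both of these comparisons cross the source names, as do those of siIGF2BP2 and siIGF2BP3 against siC.

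**Figure D4:**
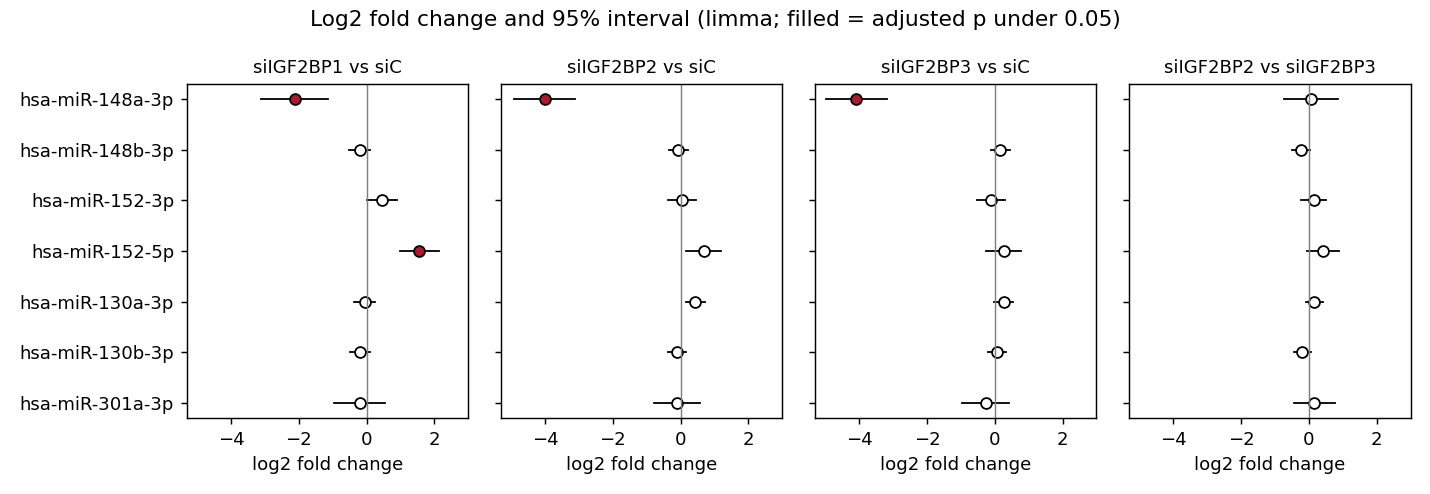
Log2 fold change (x axis) of each member (rows) with its 95% interval from limma, for siIGF2BP1, siIGF2BP2 and siIGF2BP3 against siC and for siIGF2BP2 against siIGF2BP3. Filled points have an adjusted p under 0.05, which are miR-148a-3p at -2.12, -4.01 and -4.09 and miR-152-5p at 1.55.

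A further 10 arms and relatives of these miRNAs are in the table. miR-4295 and miR-3666 had 0 reads in all libraries, and 8 were tested. Against siC, 0 of the 8 passed in siIGF2BP1, 1 in siIGF2BP2 and 0 in siIGF2BP3. The shares of all miRNAs tested that passed were 2.47%, 9.00% and 10.6% in turn. The 1 that passed was miR-148a-5p, the other arm of the miR-148a hairpin, with 20 reads in all libraries together. It had 3 and 4 reads in siIGF2BP1, 1, 0 and 0 in siIGF2BP2, 0, 1 and 1 in siIGF2BP3, and 7 and 3 in siC. Limma adjusted p-values were 0.681, 0.0349 and 0.0551 for siIGF2BP1, siIGF2BP2 and siIGF2BP3 against siC, and at these counts no fold change is given.

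miR-454-3p, which shares the seed of miR-130 and miR-301, had 357 and 286 normalised reads in siIGF2BP1, 413, 441 and 585 in siIGF2BP2, 637, 577 and 440 in siIGF2BP3, and 470 and 433 in siC. Both siIGF2BP1 libraries were below all others. Against siC the siIGF2BP1 log2 fold change was -0.49 (adjusted p = 0.306), and against siIGF2BP3 it was lower by a called -0.77 (adjusted p = 0.0167). The lower-level relatives, by mean over all libraries, were miR-130b-5p at 152.1, miR-148b-5p at 134, miR-301b at 93.5, miR-454-5p at 64.0, miR-301a-5p at 5.42 and miR-130a-5p at 1.15 normalised reads. None of these 6 passed in any comparison with siC.

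Over all 10 libraries, the 3 miRNAs whose log2(value + 1) was most like that of miR-148a-3p, among 313 with a mean of at least 10, were miR-451a (Pearson r = 0.94), miR-181c-5p (0.92) and miR-375 (0.92). These libraries share their groups and their source names, so the coefficients are a description. Within the 6 siIGF2BP2 and siIGF2BP3 libraries r was 0.43 for miR-181c-5p, and none is given there for miR-451a and miR-375, which had 0 to 2 and 0 to 1 reads per library. miR-451a had 7.23 and 213 normalised reads in siIGF2BP1, 0 to 1.91 in siIGF2BP2, 0 to 2.38 in siIGF2BP3, and 67.6 and 660 in siC. miR-375 had 12.9 and 30.0 normalised reads in siIGF2BP1, 0 in the siIGF2BP2 libraries, 0 to 1.996 in siIGF2BP3, and 335 and 89.2 in siC. All 3 were higher in the siIGF2BP1 and siC libraries than in the others, and miR-451a is a marker of red blood cells.

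miR-451a counts in a blood cell list of 11 miRNAs, whose summed share was 0.0439% to 0.0682% in siIGF2BP1, 0.0440% to 0.0642% in siIGF2BP2, 0.0557% to 0.163% in siIGF2BP3 and 0.0649% to 0.122% in siC. The summed shares of siIGF2BP2 and siIGF2BP3 thus overlapped those of siIGF2BP1 and siC, unlike the levels of miR-451a itself. The highest share, 0.163%, was in siIGF2BP3 replicate 3, where miR-451a had 2 reads. The list's part in the miR-148a-3p result was not tested.

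**Figure D5:**
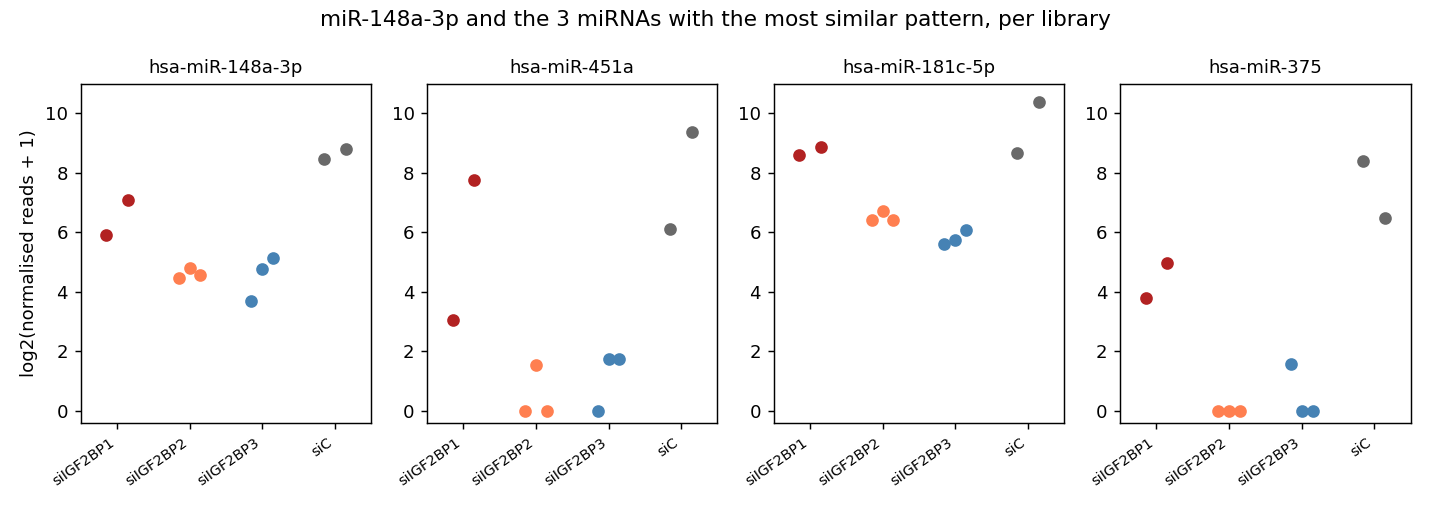
Level of miR-148a-3p and of the 3 miRNAs most like it, as log2(normalised reads + 1) on the y axis, in each library grouped on the x axis by siIGF2BP1, siIGF2BP2, siIGF2BP3 and siC. Each point is a library, and the siC points are high for all 4 miRNAs.

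The other members had other companions. miR-152-5p was most like miR-424-5p (r = 0.92), miR-181a-2-3p (0.90) and its own partner arm miR-152-3p (0.89), and miR-152-3p most like miR-585-3p (0.92), miR-26a-5p (0.90) and miR-210-3p (0.90). miR-148b-3p was most like miR-221-3p (0.88), miR-93-5p (0.87) and miR-155-5p (0.85). miR-130a-3p was most like miR-196b-5p (0.91), miR-186-5p (0.87) and miR-577 (0.79). miR-130b-3p was most like miR-183-5p (0.85), miR-155-5p (0.83) and miR-182-5p (0.82), and miR-301a-3p most like miR-561-5p (0.72), miR-17-3p (0.68) and miR-301b (0.68). Within the 6 siIGF2BP2 and siIGF2BP3 libraries r for these pairs ran from 0.20 (miR-130a-3p with miR-196b-5p) to 0.94 (miR-148b-3p with miR-221-3p). For miR-152-3p with miR-210-3p it was 0.44. miR-210-3p had 144 to 163 normalised reads in siIGF2BP1 and 18.9 to 28.6 in the other groups. miR-585-3p had 37.0 to 41.0 in siIGF2BP1 and 3.57 to 9.90 in the other groups. For the neighbouring pairs that join a member and a relative, r over the 10 libraries was -0.10 for miR-301a-3p and miR-454-3p and 0.25 for miR-130b-3p and miR-301b.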

How the data were processed

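Per the submitters' processing notes, the reads were processed with cutadapt 1.6, Bowtie2 2.2.4, featureCounts 1.4.6 and edgeR 3.12 on hg19. The sources used here do not give the annotation, the treatment of reads matching several miRNAs or the scaling. The deposited table holds a normalised signal per library, made by the authors, for 2794 rows, and log2 fold changes, p-values and false discovery rates of each knockdown against siC. Rows of 1 mature miRNA were summed to 2576 miRNAs, of which 1196 had a read. Divided by the value of 1 read, 100% of the signal values of each library came out whole within 0.01 reads, so reads were recovered. Columns of other samples numbered 0, and 0 rows lacked a name.

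The values being normalised, the main test was limma 3.58.1 (R 4.3.3) with an intensity trend on log2(value + 1), on the 889 miRNAs that reached 1 in 2 or more libraries. All 10 libraries entered 1 fit without a replicate block, and p-values were adjusted by Benjamini-Hochberg with a threshold of 0.05. The added 1 makes the fold changes of low miRNAs too small. edgeR 4.0.16 (335 miRNAs) and DESeq2 1.42.0 on recovered reads, other pseudocounts (0.1 and 5), scalings, filters, fits without the trend or to the compared groups alone, and leaving out each library were alternatives. The fit to the knockdown libraries without a block was added after seeing the data. The limma step was tested on simulated data. Shares have exact Clopper-Pearson 95% intervals, and group shares were compared by exact permutation (scipy 1.17.1).

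The members, lists and tests were chosen with earlier results of these data known. All 7 members are named, with each family-list miRNA of a mean of at least 1 and the 3 miRNAs most like each member. The siC columns, C2 and C3, could not be tied to single siC samples. No replicates were near-identical: chi-square per degree of freedom between them was 6.80 to 38.7. miRNAs of 4 marker lists were summed: 14q32, blood cell, muscle, liver and neural (29 miRNAs), and the epithelial miR-200 family (9 miRNAs, at most 0.00121% of reads). The muscle, liver and neural list took 0.0682% to 0.0819% of reads in siIGF2BP2 and siIGF2BP3, and 0.0920% to 0.182% in siIGF2BP1 and siC. Those ranges did not overlap, and the list's part in the results was not tested. Same-numbered libraries of siIGF2BP2 and siIGF2BP3 did not deviate together, but 3 libraries a group are too few to settle whether they were paired.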

Additional observations from a re-analysis of the deposited data

How the results depend on the processing

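The number of members past the threshold in siIGF2BP1 against siC, 2 as reported, was 1 with a pseudocount of 0.1, 0 without the trend, 0 with the compared groups alone, 3 with edgeR (miR-130b-3p added), 4 with DESeq2 (miR-130b-3p and miR-148b-3p added) and 0 to 1 when 1 library was left out. In siIGF2BP2 against siC, 1 as reported, it was 2 with a pseudocount of 0.1, 3 scaled to upper quartiles, 2 with a mean of at least 10 and 2 with the compared groups alone. Over all miRNAs these settings called 87 of 889, 158 of 889, 49 of 313 and 75 of 889 in turn. In siIGF2BP3 against siC, 1 as reported, the number of members was 5 scaled to upper quartiles, beside 203 of 889 miRNAs. For siIGF2BP1 against siIGF2BP2, 3 as reported, it was 1 without the trend and 0 to 2 leaving out 1 library. For siIGF2BP1 against siIGF2BP3, 2 as reported, it was 4 by TMM, by median of ratios, by upper quartiles and with a mean of at least 10, 1 with the compared groups alone, 5 with edgeR, 5 with DESeq2 and 1 to 3 leaving out 1 library. The causes were not tested. The 5p share of miR-152 differed between siIGF2BP1 and siC by 15.9 to 20.5 points when 1 library was left out.

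Scaling moved the median log2 fold change over miRNAs whose mean reached 10. In siIGF2BP1 against siC it was 0.16 as deposited and -0.07 by median of ratios; scaled to upper quartiles it was 0.52 in siIGF2BP2 and 0.67 in siIGF2BP3 against siC, from 0.04 and 0.08 as deposited. The miR-148a-3p fold changes stayed between -2.35 and -2.07, -4.15 and -3.54, and -4.19 and -3.50 in siIGF2BP1, siIGF2BP2 and siIGF2BP3 over 13 other settings each.

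Over all miRNAs, 22 were called in siIGF2BP1 against siC (19 higher, 3 lower), 10 with upper quartiles, 52 with a mean of at least 10, 5 without the trend, 0 with the compared groups alone, 42 with edgeR (17 higher, 25 lower) and 36 with DESeq2 (12 higher, 24 lower). With upper quartiles 158 (94 higher) instead of 80 (11 higher) were called in siIGF2BP2 and 203 (137 higher) instead of 94 (17 higher) in siIGF2BP3 against siC, 17 instead of 28 between siIGF2BP2 and siIGF2BP3, and 223 (78 higher) instead of 132 (109 higher) in siIGF2BP1 against siIGF2BP3. In siIGF2BP2 against siC, 49 were called with a mean of at least 10 and 52 with edgeR. Between siIGF2BP2 and siIGF2BP3, 1 was called without the trend. Leaving out 1 library gave as few as 2 calls in siIGF2BP1 and 53 in siIGF2BP2 against siC, 15 between siIGF2BP2 and siIGF2BP3, and 65 instead of 120 in siIGF2BP1 against siIGF2BP2.

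The replicate block could be fitted between knockdowns only. Same-numbered libraries of siIGF2BP2 and siIGF2BP3 did not deviate together (r = -0.12, -0.16 and -0.04). For differently numbered libraries r was -0.05 to 0.20, and so few libraries cannot settle whether they were paired. With the replicate block the members called were 0 for siIGF2BP2 against siIGF2BP3, 2 for siIGF2BP1 against siIGF2BP2 and 2 for siIGF2BP1 against siIGF2BP3, and the call of miR-130a-3p between siIGF2BP1 and siIGF2BP2 was lost (-0.46 on the log2 scale, adjusted p = 0.111). Over all miRNAs the block gave 7 calls instead of 28 between siIGF2BP2 and siIGF2BP3. With 2 or 3 libraries a group, and 6 to 29 reads of miR-148a-3p in siIGF2BP2 and siIGF2BP3, differences between low values are limited by depth.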
